A study of Mus musculus with 12 samples.

Results

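The CXC chemokine ligands described here are Cxcl1, Cxcl2, Cxcl3, Cxcl5, Cxcl9, Cxcl10, Cxcl11, Cxcl13 and Pf4, taken by name as 9 of the 43278 gene symbols measured. All 9 had a row in the deposited table. RNA-seq was done on thioglycolate-elicited peritoneal macrophages (PMφs) from wild-type mice (labelled WT; C57BL/6J, 8 to 12 wk old, in the study's methods). The mice had received 1 ml of 4% thioglycolate, the cells were harvested 4 d later by lavage, and adherent cells were used after 18 h in culture. There were 4 groups of 3 libraries. The control group had neither agent, the oxLDL group was cultured for 24 h with 100 µg/ml human medium oxidized LDL (oxLDL), the LPS group was given 10 ng/ml ultrapure LPS, and the oxLDL+LPS group was given oxLDL and then LPS. How long LPS was present is not stated for these libraries. According to the methods, an experiment pooled the cells of up to 10 mice and split the pool into the 4 conditions, so a replicate is a pool of animals and the libraries with the same replicate number are treated as a set. The deposited values behave as reads per gene divided by 1 factor per library and rounded, and are called normalized counts. Their sum per library was 17152972 to 17709731 without LPS and 22071853 to 26384551 with LPS, and the factors implied 16725738 to 26175044 reads.

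Chemokines are small secreted proteins that bind G protein-coupled receptors on leukocytes and direct their migration. Cxcl1, Cxcl2, Cxcl3 and Cxcl5 carry the ELR motif before the CXC cysteines and attract neutrophils through Cxcr2. Cxcl9, Cxcl10 and Cxcl11 are interferon-inducible ligands of Cxcr3 on T and NK cells, Cxcl13 is the ligand of Cxcr5 and guides B cells, and Pf4 is platelet factor 4, a chemokine of platelet granules that macrophages also transcribe. LPS acts on macrophages through Tlr4, NF-κB and type I interferon, and oxLDL is a modified lipoprotein whose accumulation makes macrophages foam cells.

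All 9 genes lie on chromosome 5 of GRCm38. In order along the plus strand, Cxcl5, Pf4, Cxcl3, Cxcl1 and Cxcl2 stand within 146.579 kb from 90759360 to 90905938. Cxcl9, Cxcl10 and Cxcl11 stand together on the minus strand within 44.139 kb from 92321347 to 92365485, and Cxcl13 lies alone on the plus strand from 95956951 to 95961068. Art3, on the other strand, overlaps Cxcl10 and Cxcl11, and the pseudogene Gm2673 overlaps Cxcl11. These overlaps are between gene limits, and overlap of exons was not checked. No source states how strand was handled in counting, so whether reads of such genes were told apart is not known. GENCODE vM21 annotates Cxcl11 as a polymorphic pseudogene, so its transcript is reported here without reference to a protein. Cxcl1, Cxcl2 and Cxcl3 are close relatives in sequence, and how reads shared between them were assigned is not stated.

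Promoter sequences from RefSeq (GRCm38.p6) matched 7 of the 9 genes, all but Cxcl5 and Cxcl11. The 250 bases before the annotated start are printed for Cxcl1, Cxcl2, Cxcl3 and Cxcl10, the ligands with the highest levels under LPS, and for Pf4, whose level differed least between libraries with and without LPS. Each is written 5′ to 3′ on the strand of the gene, and capitals mark letters that match 1 of 5 motifs. The motifs were the NF-κB consensus of 10 letters, the interferon-stimulated response element (ISRE, GAAA on either side of any 2 letters), the interferon-γ-activated sequence (GAS, TTCNNNGAA) and AP-1 (TGANTCA), each on both strands, and the TATA box (TATAAA) on the strand of the gene.
Cxcl1, chr5:90890995-90891244, plus strand: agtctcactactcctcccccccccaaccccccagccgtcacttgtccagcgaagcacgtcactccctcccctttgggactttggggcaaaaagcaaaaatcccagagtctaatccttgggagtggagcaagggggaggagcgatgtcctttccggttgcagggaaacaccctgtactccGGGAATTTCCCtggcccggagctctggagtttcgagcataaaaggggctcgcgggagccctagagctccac
Cxcl2, chr5:90903649-90903898, plus strand: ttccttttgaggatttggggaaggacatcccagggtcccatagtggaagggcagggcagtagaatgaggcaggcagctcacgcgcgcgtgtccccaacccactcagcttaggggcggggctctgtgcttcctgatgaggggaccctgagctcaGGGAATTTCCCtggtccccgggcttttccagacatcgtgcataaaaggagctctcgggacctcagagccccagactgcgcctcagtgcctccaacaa
Cxcl3, chr5:90785851-90786100, plus strand: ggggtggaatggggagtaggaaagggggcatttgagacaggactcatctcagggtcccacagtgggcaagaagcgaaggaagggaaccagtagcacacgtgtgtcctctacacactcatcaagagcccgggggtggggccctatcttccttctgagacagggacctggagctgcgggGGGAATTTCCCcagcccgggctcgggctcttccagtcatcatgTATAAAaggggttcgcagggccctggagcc
Cxcl10, chr5:92348890-92349139, minus strand: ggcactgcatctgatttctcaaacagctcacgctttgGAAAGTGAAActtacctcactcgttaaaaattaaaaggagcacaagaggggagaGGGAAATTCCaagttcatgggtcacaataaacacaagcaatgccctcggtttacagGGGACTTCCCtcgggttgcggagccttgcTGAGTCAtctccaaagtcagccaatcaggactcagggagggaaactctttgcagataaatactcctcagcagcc
Pf4, chr5:90772185-90772434, plus strand: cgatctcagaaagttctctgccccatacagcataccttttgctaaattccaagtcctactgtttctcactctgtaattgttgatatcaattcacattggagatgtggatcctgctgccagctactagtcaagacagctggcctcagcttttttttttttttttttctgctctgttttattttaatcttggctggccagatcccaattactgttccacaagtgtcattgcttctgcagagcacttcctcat

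Cxcl1, Cxcl2 and Cxcl3 held the same stretch of 11 letters, GGGAATTTCCC, which matches the NF-κB consensus on both strands and began 71, 97 and 73 bases before the start. Cxcl10 held 2 other NF-κB matches, GGGAAATTCC at 159 and GGGACTTCCC at 103 bases before the start, an ISRE match (GAAAGTGAAA) at 213 bases and an AP-1 match (TGAGTCA) at 74 bases. No NF-κB, ISRE, GAS or AP-1 match was in the windows of Cxcl9, Cxcl13 or Pf4, and GAS matched none of the 7. The NF-κB consensus matched 4 of 7 ligand promoters and 3.90% of the 32851 promoters of the same length. The ISRE matched 1 of 7 and 2.98% of all promoters, AP-1 1 of 7 and 6.75%, and the TATA box 3 of 7 (Cxcl3, Cxcl9 and Cxcl13) and 7.59%. Within the 100 bases nearest the start, the NF-κB consensus matched 3 of 7, those of Cxcl1, Cxcl2 and Cxcl3, and 1.504% of all promoters. A match gives letters only, and binding was not measured in these files.

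**Figure D1:**
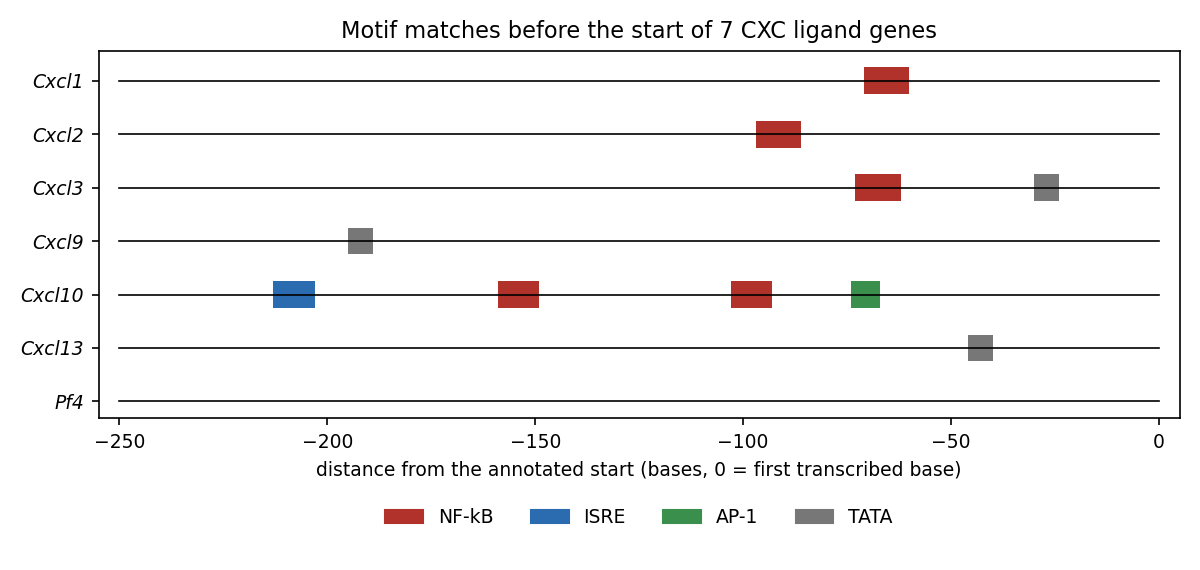
Motif matches in the 250 bases before the start of 7 CXC ligand genes. The x axis is the distance in bases from the annotated start, each line is a promoter, and coloured boxes are matches to a motif. Cxcl1, Cxcl2 and Cxcl3 have 1 NF-κB stretch each within 100 bases of the start, Cxcl10 has 2 further upstream beside an ISRE and an AP-1 match, and Pf4 has no box.

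The first comparison asked what LPS did to the ligands in PMφs without oxLDL. All 9 ligands were higher with LPS, in all libraries and past the threshold of the test, and the range of the differences ran from over 10 to under 1 on the log2 scale. Of the 13023 genes tested, 4093 were called higher and 3946 lower, so that 31.4% were called higher. Cxcl3, Cxcl9 and Cxcl11 passed the filter on low values only through the LPS libraries and so had to differ, which leaves 6 ligands whose call the filter did not favour. A gene was called where its Benjamini-Hochberg adjusted p was under 0.1 in limma, fitted to log2(normalized count + 1). Libraries did not overlap, with higher values under LPS, for 32.1% of genes. With libraries rescaled to equal sums, which lowered the median of all genes to −0.48 on the log2 scale, 8 of 9 ligands were called and Pf4, at 0.07, was not. That scaling called 2210 genes higher and 7200 lower.

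**Figure D2:**
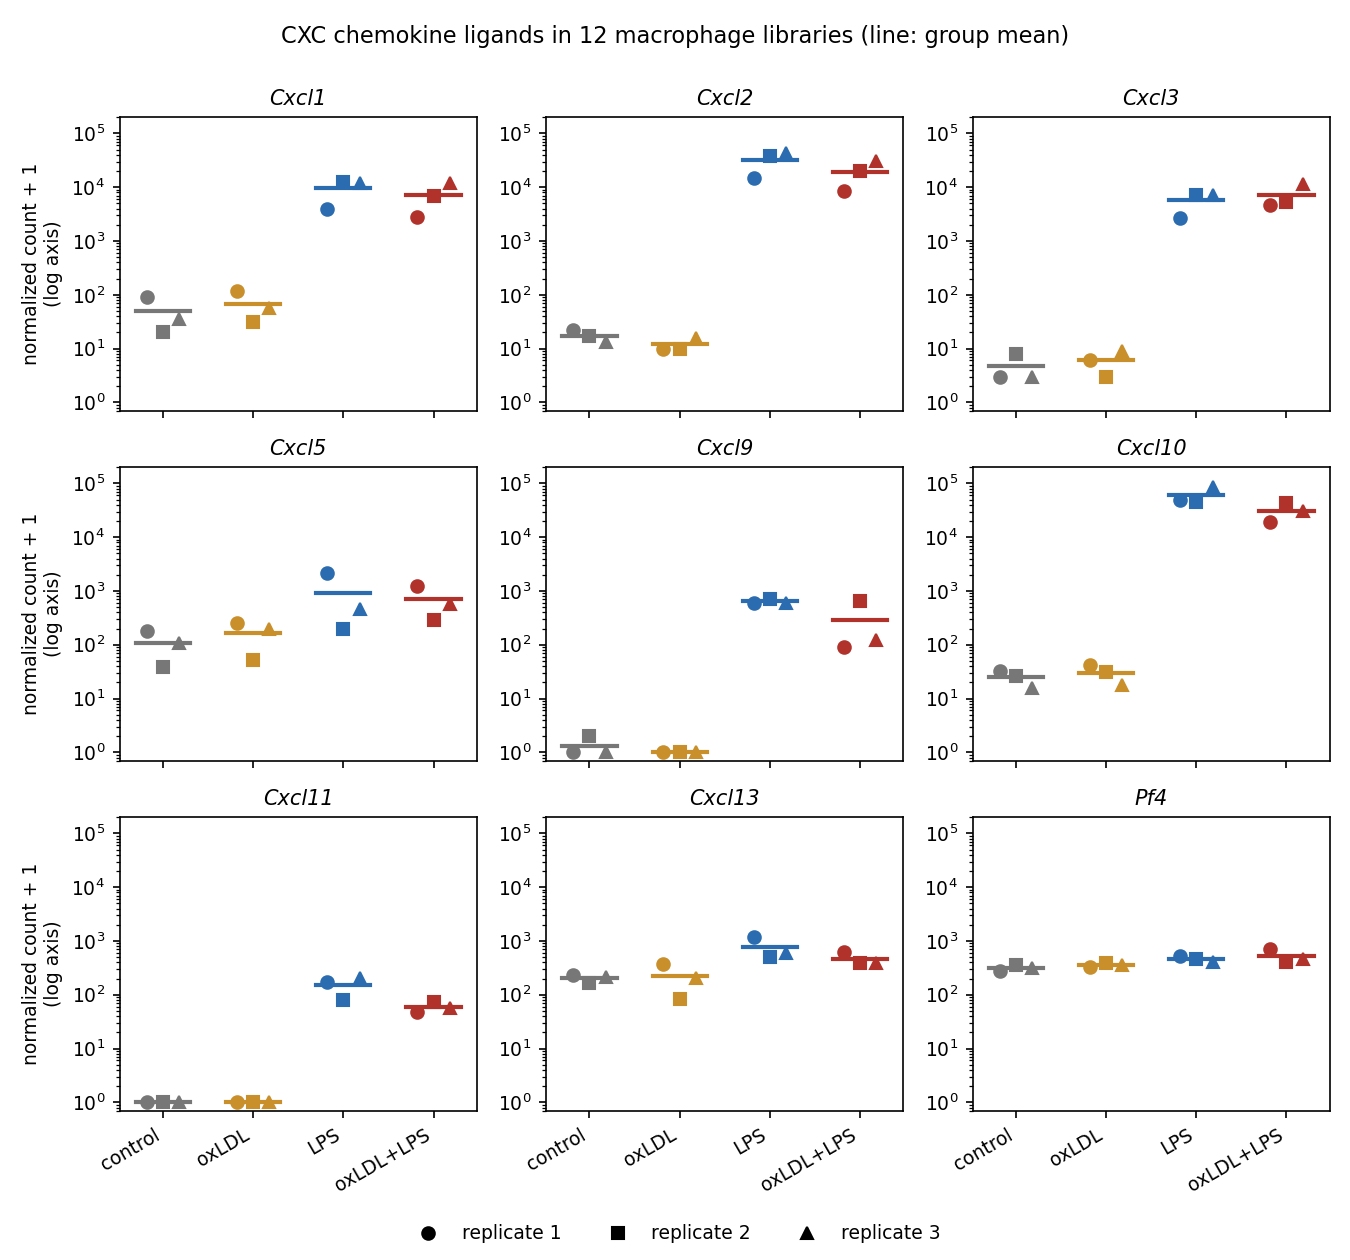
Normalized count plus 1 of each CXC ligand in 12 PMφ libraries on a log axis, by group, with the replicate number as the symbol and a line at the group mean. For every ligand the 3 LPS libraries are above the 3 control libraries, and the 3 oxLDL+LPS above the 3 oxLDL libraries, by a wide margin for Cxcl1, Cxcl2, Cxcl3 and Cxcl10 and by a narrow one for Pf4.

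Of the neutrophil-attracting ligands, Cxcl2 rose most. Its normalized count was 21, 16 and 12 in control replicates 1, 2 and 3 and 14747, 37346 and 43478 in LPS replicates 1, 2 and 3. The groups were far apart, and the lowest LPS value was in replicate 1. The mean was 16.3 ± 4.51 in control and 31857 ± 15132 in LPS (SD, n = 3), with a log2 difference of 10.73 (standard error 0.40, adjusted p = 6.9e-07 from limma). By the size of this difference Cxcl2 was 8th of the 13023 genes. Cxcl3 was at 2, 7 and 2 in control and at 2688, 7242 and 7290 in LPS libraries. It was nearly silent without LPS and again lowest among the LPS libraries in replicate 1. Its log2 difference was 10.29 (standard error 0.50), which is set in part by the pseudocount since the control values are under 10.

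Cxcl1 had higher control values than Cxcl2 and Cxcl3. It was at 91, 19 and 34 in control and at 4012, 12626 and 11956 in LPS libraries. Replicate 1 was the highest of the control libraries and the lowest of the LPS libraries. On the log2 scale Cxcl1 differed by 7.72 (standard error 0.61, adjusted p = 3.2e-05 from limma). By replicate number the differences were 5.45, 9.30 and 8.42. Cxcl5 behaved differently from its 3 relatives. Its values were 177, 38 and 109 in control and 2121, 196 and 466 in LPS libraries, so replicate 1 was the highest of each group. The lowest LPS value was barely above the highest control value. The log2 difference was 2.67 (standard error 0.87, adjusted p = 0.0331 from limma), and it was no longer called without control replicate 2, at 2.05 (adjusted p = 0.107 from limma).

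Among the Cxcr3 ligands, Cxcl10 was at 31, 25 and 15 in control and at 49044, 45227 and 86174 in LPS libraries. No control value came near the LPS values, of which replicate 3 was the highest. The mean rose from 23.7 ± 8.08 to 60148 ± 22620 (SD, n = 3), a log2 difference of 11.25 (standard error 0.31, adjusted p = 2.4e-07 from limma), 5th of all genes tested. Per kilobase of exon, Cxcl10 ranked between 26 and 41 among 39354 genes in the LPS libraries, against 10424 to 11615 in control libraries. Cxcl9 was listed at 0, 1 and 0 in control and at 605, 707 and 602 in LPS libraries, the smallest spread between LPS libraries among the strongly raised ligands (638 ± 59.8, SD, n = 3). Cxcl11 was listed at 0 in the 3 control libraries and at 175, 79 and 202 in LPS libraries. No fold or p is given for these 2 genes.

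Cxcl13 and Pf4 were present without LPS and changed least. Cxcl13 was at 232, 163 and 216 in control and at 1179, 502 and 598 in LPS libraries, with no overlap and the highest LPS value in replicate 1. It differed by 1.81 on the log2 scale (standard error 0.31, adjusted p = 0.00174 from limma). Pf4 was at 273, 357 and 318 in control and at 519, 464 and 411 in LPS libraries. The groups were close but separate, and the log2 difference was 0.56 (standard error 0.14, adjusted p = 0.0119 from limma).

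PMφs with accumulated oxLDL were compared in the same way, with and without LPS. Again all 9 ligands were higher with LPS and called, against 3633 of 12900 genes called higher, 28.2%, and 29.6% of genes whose libraries did not overlap with higher values under LPS. Cxcl2, Cxcl3, Cxcl9 and Cxcl11 passed the filter here only through the libraries with LPS and so had to differ. That leaves Cxcl1, Cxcl5, Cxcl10, Cxcl13 and Pf4 as the ligands whose call the filter did not favour. The values in oxLDL replicates 1, 2 and 3 were 115, 30 and 56 for Cxcl1, 9, 9 and 15 for Cxcl2, 5, 2 and 8 for Cxcl3, and 257, 52 and 192 for Cxcl5. The Cxcr3 ligands were at 41, 30 and 17 for Cxcl10 and listed at 0 in each oxLDL library for Cxcl9 and Cxcl11. Cxcl13 was at 375, 83 and 205 and Pf4 at 325, 380 and 363. These are levels near those of the control libraries.

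In oxLDL+LPS replicates 1, 2 and 3 the values were 2736, 6748 and 11833 for Cxcl1, 8649, 19667 and 30265 for Cxcl2, 4735, 5291 and 11611 for Cxcl3, and 1227, 291 and 581 for Cxcl5. Cxcl9 was at 90, 643 and 124, Cxcl10 at 18813, 42411 and 31239, and Cxcl11 at 47, 72 and 55. Cxcl13 was at 629, 389 and 385 and Pf4 at 720, 412 and 470. The log2 differences from the oxLDL libraries were 6.67 for Cxcl1, 10.53 for Cxcl2, 10.25 for Cxcl3 and 10.00 for Cxcl10, and they were 2.10 for Cxcl5, 1.29 for Cxcl13 and 0.54 for Pf4. The last 3 were the least certain, with standard errors of 0.69, 0.51 and 0.21. Their adjusted p was 0.0405, 0.0733 and 0.0641 from limma. The differences of Cxcl2 and Cxcl3 are set in part by the pseudocount, since their values in oxLDL libraries are low. Under equal sums, where 2055 genes were called higher and 6618 lower and the median of all genes was −0.40, Cxcl13 (0.90, adjusted p = 0.168 from limma) and Pf4 (0.15, adjusted p = 0.568 from limma) were not called. With 1 oxLDL+LPS library left out, Cxcl3, Cxcl9 and Cxcl11 no longer reached 10 in 3 libraries. Of the 6 ligands then tested, 4 were called without replicate 1 and 5 without replicate 2 or 3. Genes called higher in these fits numbered 3382 without replicate 1, 3375 without replicate 2 and 3078 without replicate 3. With each of the 6 libraries left out in turn, Cxcl13 was called in 1 fit of 6 and was 0.71 without oxLDL replicate 2, and Pf4 was called in 3 of 6 and was 0.31 without oxLDL+LPS replicate 1. Cxcl5 lost its call without oxLDL+LPS replicate 1 (1.58).

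**Figure D3:**
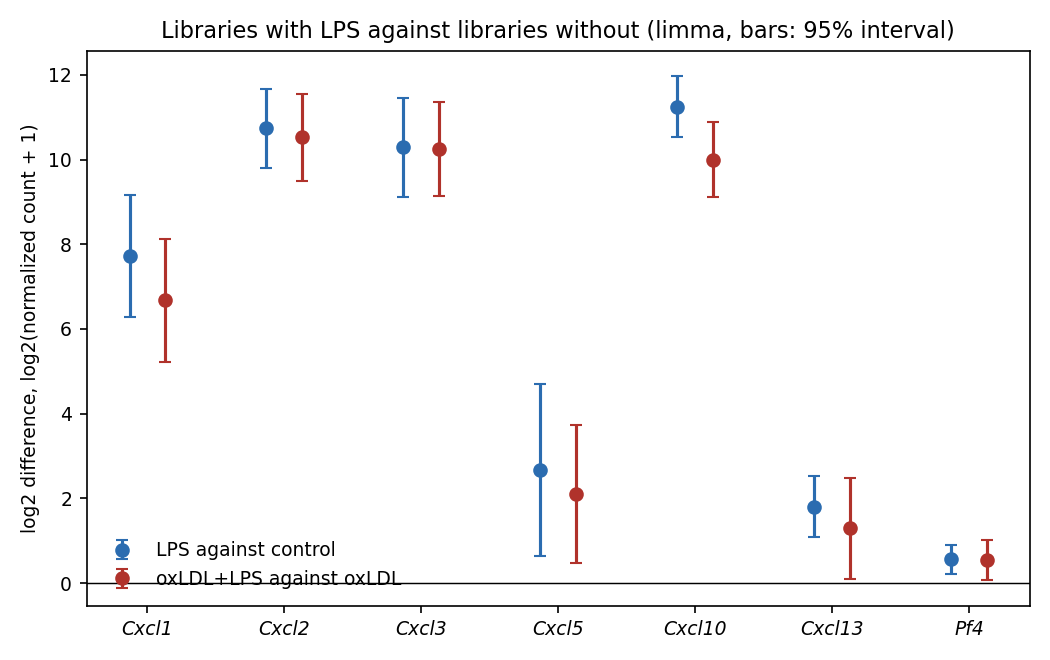
Log2 difference between libraries with and without LPS for 7 CXC ligands (y axis, on the scale of log2 of the normalized count plus 1), in PMφs without oxLDL and with oxLDL. Points are limma estimates and bars 95% intervals. The differences run from 11.25 for Cxcl10 to 0.54 for Pf4, and the intervals of both conditions overlap for each ligand. Cxcl9 and Cxcl11 are left out because they were listed at or near 0 without LPS. Cxcl3 in both conditions, and Cxcl2 with oxLDL, passed the filter only through the libraries with LPS and so had to differ.

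LPS changed which of the 9 ligands made up most of their summed level. Other CXC ligands are not in this sum. Among these, Cxcl16 (1145, 1249 and 1087 in control libraries) had higher counts there than any of the 9. Levels were divided by the length of all exons of a gene to compare ligands with each other. In control libraries Pf4 held 61.3% ± 10.7 and Cxcl13 24.6% ± 3.47 of the summed level of the 9 ligands per kilobase (SD, n = 3). In LPS libraries Cxcl10 held 53.0% ± 10.6, Cxcl2 29.4% ± 8.50, Cxcl1 9.75% ± 3.93 and Cxcl3 3.16% ± 1.049. In oxLDL+LPS libraries these shares were 45.6% ± 9.67, 29.4% ± 6.87, 11.5% ± 3.98 and 6.82% ± 2.16. Per kilobase of exon, the order of the group means was Cxcl10, Cxcl2, Cxcl1 and Cxcl3 in both groups, although Cxcl2 (37.1%) was above Cxcl10 (35.1%) in oxLDL+LPS replicate 3. The summed counts of all 9 were 0.00361 to 0.00482% of a control library, 0.332 to 0.573% of an LPS library and 0.171 to 0.371% of an oxLDL+LPS library. By coding length in place of exon length, Cxcl3 (5.07%) was below Cxcl1 (8.73%) in LPS libraries and slightly above it in oxLDL+LPS libraries (10.9% ± 3.50 against 10.3% ± 3.42), within the spread between libraries, and Pf4 held 46.3% in control libraries.

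**Figure D4:**
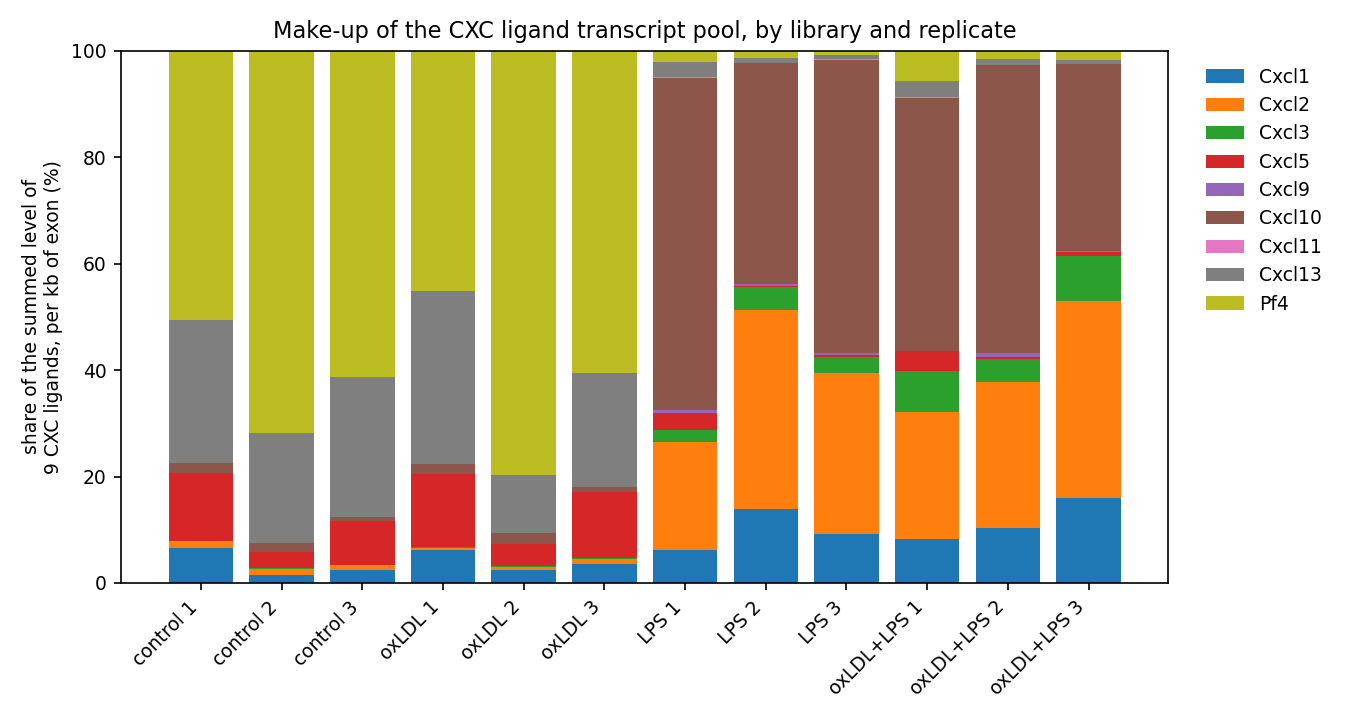
Share (%) of each CXC ligand in the summed level of the 9 ligands, per kilobase of exon, in each of the 12 libraries. Pf4 and Cxcl13 fill most of the bar without LPS, Cxcl10 and Cxcl2 with LPS, and the Cxcl3 share is 7.69%, 4.35% and 8.41% in the oxLDL+LPS libraries against 2.20%, 4.28% and 3.01% in the LPS libraries.

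The effect of oxLDL accumulation on LPS-stimulated PMφs was measured by comparing oxLDL+LPS with LPS libraries. The Cxcr3 ligands had the largest differences, all toward lower values, and Cxcl1, Cxcl2 and Cxcl13 were also lower in each of the 3 replicate numbers, while Cxcl3, Cxcl5 and Pf4 had no common direction. Of all genes, 24.4% were lower and 21.0% higher in each of the 3 numbers. Without the pairing, 0 of the 9 ligands and 0 of 12786 genes (0%) were called by limma, and 890 genes had an unadjusted p under 0.05. With the replicate number as a block, 1682 genes were called, 565 higher (4.42%) and 1117 lower (8.74%). The blocked fit called 6 of 9 ligands, all lower. The blocked fit called 0 ligands without number 1 (71 genes) and 0 without number 3 (0 genes). Without number 2 it called 9 ligands, 7 lower and 2 higher, and 2945 genes, 1846 lower and 1099 higher. The 7 include Cxcl5 at −0.24, whose differences in numbers 1 and 3 had opposite signs (−0.79 and 0.32). A call in that fit therefore does not show that both numbers agreed. Each of these fits has 2 libraries per group. With single libraries left out and no block, Cxcl2 was −0.24 without oxLDL+LPS replicate 1 and −1.22 without LPS replicate 1, Cxcl13 −0.27 without LPS replicate 1, and Cxcl9 −2.58 without oxLDL+LPS replicate 2.

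Cxcl10 in oxLDL+LPS libraries was at 38.4%, 93.8% and 36.3% of the LPS library of the same number. All 3 oxLDL+LPS values were below the 3 LPS values, but in number 2 the difference was slight. The log2 difference was −0.98 (95% interval −1.52 to −0.44 with the block, adjusted p = 0.0430 from limma). Without the block the interval was −1.84 to −0.12 and the adjusted p 0.704, and over the alternatives the adjusted p ran from 0.0421 to 0.777. Separation of the groups has an exact two-sided permutation p = 0.1, the smallest that 3 against 3 allow, and 6.39% of the genes tested were separated toward lower and 6.18% toward higher values.

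Cxcl11 followed the same pattern at a far lower level, at 26.9%, 91.1% and 27.2% of the LPS library of the same number. Its groups did not overlap either. The log2 difference was −1.29 (95% interval −1.97 to −0.61, adjusted p = 0.0384 from limma with the block), in a range of adjusted p from 0.0372 to 0.777 over the alternatives. Cxcl9 was at 14.9%, 90.9% and 20.6%. Replicate 2 of the oxLDL+LPS group, at 643, lay among the LPS values, so the groups overlapped, and the other 2 were well below them. Cxcl9 differed by −1.71 on the log2 scale (95% interval −2.57 to −0.86, adjusted p = 0.0317 from limma with the block), in a range from 0.0306 to 0.777. Number 2 thus stood apart for these 3 neighbouring genes. The differences there were −0.14, −0.09 and −0.13 for Cxcl9, Cxcl10 and Cxcl11, against −1.38 to −2.74 in numbers 1 and 3. Cxcl1 and Cxcl2 did not share this and had their largest falls in number 2 (−0.90 and −0.93), and Cxcl3 was lower only there (−0.45). Still, the pattern was not particular to the 3 neighbouring genes. Arid5a was at 1406, 1894 and 2362 in LPS and at 746, 1827 and 1140 in oxLDL+LPS libraries. The blocked fit called 2945 genes without number 2, against 1682 with all numbers.

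The neutrophil-attracting ligands divided. Cxcl2 was at 58.6%, 52.7% and 69.6% of the LPS library of the same number, lower in each number, but the groups overlapped. Cxcl2 differed by −0.74 on the log2 scale (95% interval −0.995 to −0.483 with the block, adjusted p = 0.00958 from limma), in a range from 0.00937 to 0.835. Cxcl1 was at 68.2%, 53.4% and 99.0%, so replicate 3 hardly differed. Its log2 difference was −0.49 (95% interval −0.81 to −0.17, adjusted p = 0.0718 from limma with the block), in a range from 0.0701 to 0.911. With the block and libraries rescaled to equal sums, Cxcl1 was not called (−0.40, adjusted p = 0.173 from limma) and 5 ligands were.

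Cxcl3 was at 176%, 73.1% and 159%, higher in numbers 1 and 3 and lower in number 2. Its log2 difference of 0.35 was not called (95% interval −0.11 to 0.80 with the block, adjusted p = 0.332 from limma). Cxcl5 was at 57.9%, 148% and 125%, with a difference of 0.03 (95% interval −0.44 to 0.50 with the block). The intervals of both include 0 and do not show that the levels were alike.

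Of the remaining 2, Cxcl13 was at 53.4%, 77.5% and 64.4% of the LPS library of the same number, lower in each. The difference was −0.64 (95% interval −0.87 to −0.40, adjusted p = 0.0118 from limma with the block), in a range from 0.0117 to 0.777. Pf4 was at 139%, 88.8% and 114%, with a difference of 0.16 (95% interval −0.10 to 0.43 with the block, not called). The median difference was −0.23 for the 4 neutrophil-attracting ligands and −1.29 for the 3 Cxcr3 ligands, against −0.01 for all genes tested.

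**Figure D5:**
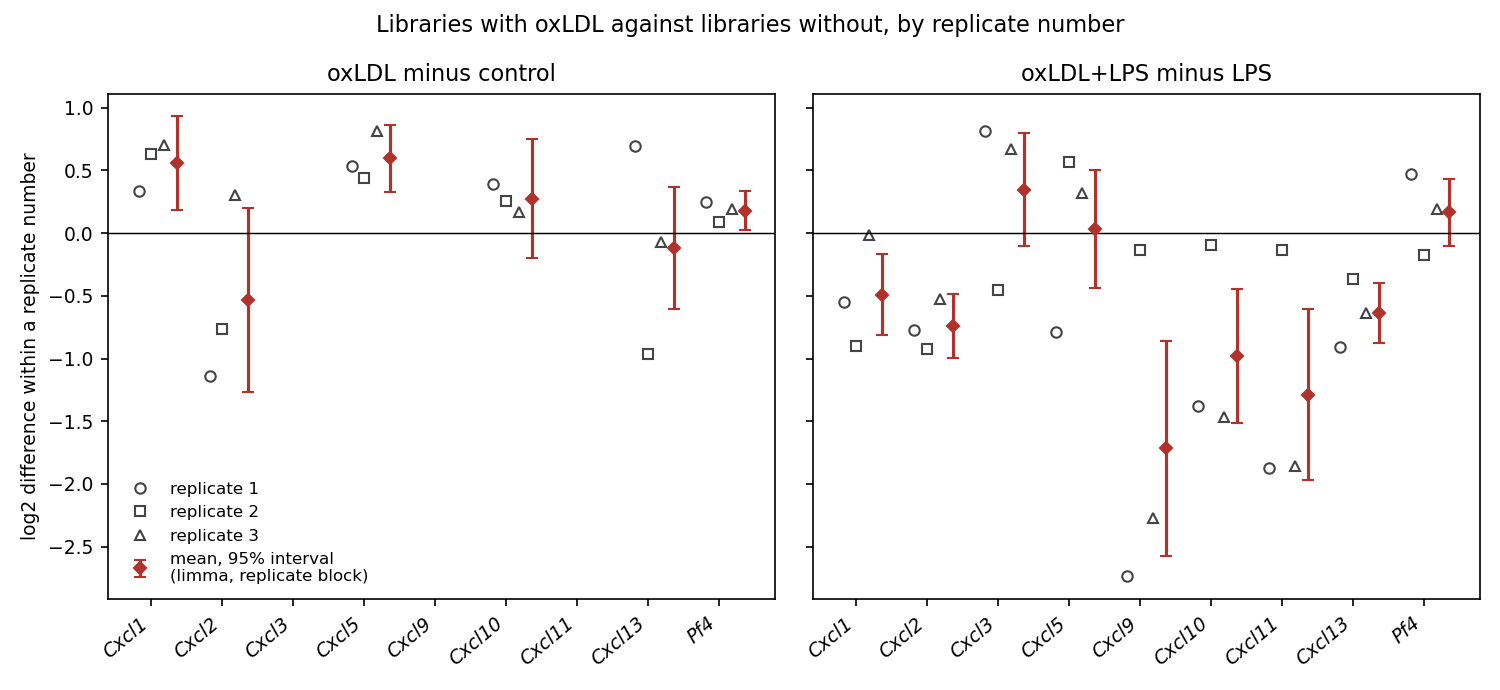
Log2 difference between libraries with and without oxLDL within each replicate number (y axis), without LPS on the left and with LPS on the right. Open symbols are replicate numbers and red diamonds the mean with its 95% interval from limma with the replicate block. With LPS, Cxcl9, Cxcl10 and Cxcl11 are far below 0 in numbers 1 and 3 and near 0 in number 2. Cxcl3, Cxcl9 and Cxcl11 have no points on the left because they did not reach 10 in 3 of those libraries.

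Cxcl3 and the other ligands were also compared as a ratio within a library, which the scaling of libraries cannot alter. The ratio of Cxcl3 to Cxcl2 counts was 0.182, 0.194 and 0.168 in LPS replicates 1, 2 and 3 and 0.547, 0.269 and 0.384 in oxLDL+LPS replicates 1, 2 and 3. It was higher in each oxLDL+LPS library than in any LPS library, by 1.08 on the log2 scale on average (1.59, 0.47 and 1.19 by number). The ratio of Cxcl3 to Cxcl1 was 0.670, 0.574 and 0.610 in LPS and 1.73, 0.784 and 0.981 in oxLDL+LPS libraries, also without overlap. Both had an exact two-sided permutation p = 0.1, the smallest possible, and 0.3 after Benjamini-Hochberg adjustment over 6 ratios that were chosen after the values were seen. Cxcl1 to Cxcl2 differed by 0.25 (exact permutation p = 0.2), Cxcl10 to Cxcl2 by −0.24 (0.7), Cxcl10 to Cxcl9 by 0.74 (0.3) and Cxcl10 to Cxcl11 by 0.32 (0.6), and these 4 overlapped between groups. Within replicate numbers 1, 2 and 3, however, Cxcl1 to Cxcl2 (0.22, 0.02 and 0.51), Cxcl10 to Cxcl9 (1.37, 0.04 and 0.82) and Cxcl10 to Cxcl11 (0.51, 0.04 and 0.41) were higher with oxLDL+LPS in each number, slightly so in number 2.

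Without LPS, oxLDL accumulation made small differences. Of the 9 ligands, 6 passed the filter, and 0 of them and 0 of 12751 genes (0%) were called by limma, with 381 genes at an unadjusted p under 0.05. With the block, 601 genes were called, 229 higher (1.80%) and 372 lower (2.92%), and 1 ligand. This was Cxcl5, higher by 0.54, 0.44 and 0.81 in numbers 1, 2 and 3, with a mean of 0.60 (95% interval 0.33 to 0.86, adjusted p = 0.0263 from limma, in a range from 0.0263 to 1). It was not called in the blocked fit without number 1. Cxcl1 was higher by 0.33, 0.63 and 0.70 (mean 0.56, adjusted p = 0.124 from limma with the block), Cxcl10 by 0.39, 0.25 and 0.17 (mean 0.27) and Pf4 by 0.25, 0.09 and 0.19 (mean 0.18), each in all 3 numbers and not called. In all, 17.5% of the genes tested were higher in all 3 numbers. Cxcl2 (−0.53) and Cxcl13 (−0.12) had mixed signs.

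Whether oxLDL acted differently with and without LPS was tested as an interaction on all 12 libraries. Cxcl3, Cxcl9 and Cxcl11 were below the filter without LPS, so no interaction is read for them. Of the ligands, 0 were called by limma, as were 0 of 13482 genes (0%), with 418 genes at an unadjusted p under 0.05. Among the other 6 the values ran from −1.25 for Cxcl10 to −0.01 for Pf4, which turned positive (0.080) under equal sums, and over all genes tested the median was −0.01. For Cxcl10 the interaction was −1.25 (95% interval −2.45 to −0.05, unadjusted p = 0.0428 from limma) and for Cxcl1 −1.05 (−3.22 to 1.13). The replicate block used in the other comparisons also called 0 genes and 0 ligands, with a standard error of 0.97 and an adjusted p of 0.835 from limma for Cxcl1. With a block for each replicate number within each LPS state, 147 genes (1.09%) were called, 55 higher (0.408%) and 92 lower (0.682%), and 1 ligand, Cxcl1 (adjusted p = 0.0621 from limma, in a range from 0.0621 to 1 over the alternatives). That fit called 0 genes without number 1 and 0 without number 3. Without number 2 it called 763 genes, 312 higher and 451 lower, and 4 ligands, all lower. The count of 4 is over all ligands tested, so it can include Cxcl3, Cxcl9 and Cxcl11, for which no interaction is read.

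The other CXC ligands and the receptors were followed as named lists. Of 6 other ligands, 3 were tested. Cxcl16, a membrane-bound chemokine and scavenger receptor, was at 1145, 1249 and 1087 in control and at 7590, 10661 and 10593 in LPS libraries (log2 difference 3.03, called). The homeostatic ligands Cxcl14 (−1.54) and Cxcl12 (−1.23) were called lower, opposite in direction to the 9. In oxLDL-loaded PMφs Cxcl16 (3.04) and Cxcl14 (−1.46) were again called, and Cxcl12 (−0.83, adjusted p = 0.265 from limma) was called only with the block (adjusted p = 0.00143 from limma). Under oxLDL+LPS against LPS, with the block, Cxcl16 was lower (−0.37) and Cxcl12 higher (0.42). Cxcl16 was also lower with oxLDL without LPS (−0.37, adjusted p = 0.0195 from limma with the block). Of 8 receptors, 4 were tested and 4 were called lower with LPS, as were 3946 of all 13023 genes tested. Cxcr4, the receptor of Cxcl12, was at 1682, 2697 and 2496 in control and at 38, 108 and 45 in LPS libraries, a fall by 5.27 on the log2 scale. Cxcr2, the receptor of the neutrophil-attracting ligands, went from 38, 43 and 38 to 2, 2 and 1, and Cxcr1 (−2.76) and Cxcr3 (−3.13) were also lower. Cxcr2 and Cxcr3 passed the filter on low values only through the control libraries and so had to differ, which leaves Cxcr1 and Cxcr4. In oxLDL-loaded PMφs Cxcr1, Cxcr2 and Cxcr4 were also called lower with LPS, as were 3397 of all 12900 genes tested. Cxcr2 passed the filter there only through the oxLDL libraries and so had to differ. Between oxLDL+LPS and LPS only 3 receptors were tested (Cxcr1, Cxcr4 and Cxcr5), and 0 were called in either fit. Cxcr2 and Cxcr3 were too low to be tested there. Between oxLDL and control, 2 of 5 tested receptors were called lower with the block and 0 without it.

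Genes that act on chemokine transcription, mRNA or protein were taken as lists. Over all genes tested, 31.4% were called higher with LPS without oxLDL and 28.2% with oxLDL. With the block, 8.74% were called lower in oxLDL+LPS than in LPS libraries. Of 11 NF-κB subunits, inhibitors and feedback genes, 11 were called higher with LPS in PMφs without oxLDL, and 11 in PMφs with oxLDL. Nfkbia, the inhibitor IκBα, was higher by 5.21, the A20 gene Tnfaip3 by 4.59, Nfkbie by 5.27 and Nfkbiz, a coactivator of late NF-κB targets, by 5.69. Between oxLDL+LPS and LPS 0 were called without and 8 with the block, all lower, with a median of −0.38. These included Rel (−0.64), Tnfaip3 (−0.77), Nfkbiz (−0.76) and Bcl3 (−0.37). Of 11 genes that control the decay or stability of chemokine mRNAs, 6 were higher and 1 lower with LPS. Zc3h12a (Regnase-1, 3.70), Zc3h12c (3.92), Arid5a (3.00) and Hnrnpd (1.01) were the 4 higher genes with the smallest p, and Zfp36l2 (−1.49) was the lower one. With the block 6 were lower in oxLDL+LPS than in LPS libraries, among them Rc3h1 (Roquin-1, −0.49), Zc3h12a (−0.54), Zfp36 (tristetraprolin, −0.46) and Rc3h2 (−0.34). Rc3h1 was also lower with oxLDL without LPS, at 825, 990 and 864 against 1077, 1151 and 1158 in control libraries.

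Of 13 tested genes of the interferon axis, 10 rose and 1, the interferon-γ receptor gene Ifngr1 (−0.57), fell with LPS. Of all genes, 31.4% were called higher with LPS. Irf7 rose by 6.77, Irf1 by 5.11 and Stat2 by 4.49. Between oxLDL+LPS and LPS, Irf8 (−0.83) and Ifnar1 (−0.42) were called lower with the block, while Irf7 (−0.32), Irf1 (−0.25) and Stat2 (−0.26) were not. Of 7 tested proteases that can cleave chemokines, 3 were called higher with LPS, a count near the 31.4% of all genes. These were Mmp13 (4.84), Mmp14 (3.24) and Mmp9 (1.89). With the block Mmp13 (−1.09) and Mmp14 (−0.45) were lower in oxLDL+LPS than in LPS libraries, as were 8.74% of all genes.

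Macrophage markers were present in every library, summing to between 226714 and 318793 over 7 genes listed. Neutrophil and platelet markers were low. Ly6g and Stfa2l1 were listed at 0 in all 12 libraries and S100a9 at 0 or 1, and the 9 neutrophil markers summed to 43 to 61 without LPS, 81 to 180 with LPS and 132 to 260 with oxLDL+LPS. S100a8 was at 31 to 49 without LPS and 74 to 248 with it, and Ltf at 3 to 25 without LPS and 1 to 4 with it. The 9 platelet markers summed to 70 to 122 without LPS and 15 to 27 with it, below Pf4 itself. Mesothelial and fibroblast markers (11 genes) were highest in replicate 1 and lowest in replicate 3 of each group, at 25467, 17836 and 5914 in control, 20980, 14831 and 6208 in oxLDL, 32222, 15078 and 6342 in LPS, and 18700, 16554 and 5464 in oxLDL+LPS libraries. Of the other CXC ligands, Cxcl12 had the same order in every group, such as 513, 370 and 159 in control and 256, 127 and 71 in LPS libraries. Cxcl5 was also highest in replicate 1 of each group but lowest in replicate 2, and Cxcl13 was highest in replicate 1 of each group. The summed markers of large peritoneal macrophages (7 genes) had the same order as Cxcl5 in every group. They were at 2704, 1674 and 2201 in control and 3979, 2012 and 3653 in oxLDL libraries. With LPS they were at 2860, 1384 and 1906 in LPS and 4481, 1623 and 2561 in oxLDL+LPS libraries. In control libraries only Cd5l, the most abundant of the 7, had this order, at 2196, 852 and 1549. The others did not, such as Gata6 (348, 374 and 186) and Vsig4 (50, 263 and 300). Cd5l, singled out after its values were seen, was higher with oxLDL without LPS by 0.73 (adjusted p = 1 from limma without and 0.00068 with the block). Cxcl5 was called in the same comparison, in which 3 of 6 tested markers of this list were higher and 3 lower. The part of these cells in the ligand values was not tested, and in bulk RNA fewer cells of a type and less RNA per cell cannot be told apart.

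The genes whose pattern over the 12 libraries was most like that of a ligand were found by the root mean square difference of centred log2 values among 13481 other genes. The nearest to Cxcl1 were Ptx3 (0.72), Gm4951 (0.74) and Il27 (0.78). Those nearest to Cxcl2 were Gbp5 (0.45), Irg1 (0.56) and Mx1 (0.61), to Cxcl3 Irg1 (0.69), Cxcl2 (0.72) and Mx1 (0.72), and to Cxcl10 Irg1 (0.52), Mx1 (0.53) and Gbp5 (0.61). Cxcl2, Cxcl3 and Cxcl10 thus had Irg1 and Mx1 in common. Those nearest to Cxcl5 were Clec4a1 (0.72), Gm10134 (0.76) and Spic (0.80), to Cxcl9 Serpina3f (0.37), Ptgs2 (0.68) and Tnfsf15 (0.68), and to Cxcl11 Ccl12 (0.28), Socs3 (0.44) and Ccnd2 (0.46). For Cxcl13 they were Tgif2 (0.35) and Pdcd1lg2 (0.39), and for Pf4 B9d2 (0.16), Plekhg1 (0.17) and Pag1 (0.18). Serpina3f was at 526, 988 and 1075 in LPS and at 89, 936 and 170 in oxLDL+LPS libraries, high in oxLDL+LPS replicate 2 as Cxcl9 was.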

How the data were processed

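Poly(A) RNA of 12 PMφ cultures was sequenced. The authors used Trimmomatic 0.32, STAR 2.5.1b with the mm10 (GRCm38) genome, and featureCounts with GENCODE vM4. The deposited signal behaves as their counts after division by a factor for each library and rounding. Reads were not recovered, so count tests were not run. Groups were compared with limma 3.58.1 (R 4.3.3; lmFit, eBayes with a variance trend) on log2(value + 1), for genes that reached 10 in 3 or more libraries of the comparison. The interaction used all 12 libraries. The threshold was an adjusted p under 0.1, and the fit was tested on simulated data. Replicate numbers pair the libraries, since the methods describe a pool split among conditions, and deviations of same-numbered libraries correlated at 0.332 to 0.727. The blocked fit is given where it changes a call. Exon lengths came from GENCODE vM21. The members and lists were chosen with earlier results of these data known. The text names the 9 ligands, the other CXC ligands and receptors that passed the filter, up to 4 called genes with the smallest p per further list and comparison, and the 3 nearest genes by pattern. Some genes that this rule names are not reported here. Implied depth was 16725738 to 26175044 reads. The p-values measure the spread between 3 pools. Dates stood in place of 25 gene symbols, and those rows were named as no gene. The alternatives were other filters, pseudocounts, scalings, fits with all libraries or no variance trend, and libraries left out.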

Additional observations from a re-analysis of the deposited data

Results flagged for a closer look

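For 2 ligands the difference between oxLDL-loaded and unloaded PMφs had opposite directions without and with LPS in all 3 replicate numbers. Cxcl1 was higher with oxLDL by 0.33, 0.63 and 0.70 on the log2 scale without LPS and lower by −0.55, −0.90 and −0.01 with LPS, an interaction of −1.05 (standard error 0.99 and adjusted p = 1.00 from limma without a block, 0.97 and 0.835 with the replicate block, 0.19 and 0.0621 with a block for each replicate number within each LPS state). With 1 library left out the Cxcl1 value ran from −1.65 to −0.48. Cxcl10 was higher by 0.39, 0.25 and 0.17 without LPS and lower by −1.38, −0.09 and −1.46 with LPS, an interaction of −1.25 (standard error 0.55 and adjusted p = 1.00 from limma without a block, 0.55 and 0.695 with the replicate block, 0.29 and 0.1003 with that block, which missed the threshold). Of 13482 genes, 1.92% had this pattern in all 3 numbers and 2.20% the reverse. Cxcl10 without LPS was at low counts, 41, 30 and 17 with oxLDL against 31, 25 and 15 in control libraries. Cxcl1 with LPS hardly differed in number 3, at 11833 with oxLDL against 11956.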

How the results depend on the processing

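Each group has 3 libraries, and the ligands at or near 0 without LPS are tested only while 3 libraries with LPS are in the fit. The 9 ligands kept their direction between libraries with and without LPS under all alternatives run. With the replicate block, oxLDL+LPS against LPS gave 1682 genes and 6 ligands called, and oxLDL against control 601 genes and 1 ligand, against 0 in each without it. The interaction had 0 genes and 0 ligands called with that block, as without it, and 147 genes and 1 ligand with the block within each LPS state. The block changed no ligand's call between LPS and control or oxLDL+LPS and oxLDL. In combinations chosen after seeing the data, the block with equal sums gave 1574 genes and 5 ligands between oxLDL+LPS and LPS, with median of ratios scaling 1655 genes and 6 ligands, and with a pseudocount of 5, 1721 genes and 6 ligands. A fit with all 12 libraries called 29 genes there. Where every library had to reach 10, 5 ligands were tested and 5 called between oxLDL+LPS and oxLDL. Under the main filter 28.2% of genes were called higher there. The interaction turned positive for Pf4 with equal sums (0.080). For Cxcl3, for which no interaction is read, the value turned positive with a pseudocount of 5 (0.13) and with equal sums (0.035). Neither ligand was called in these fits.

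Fits were repeated with 1 library or replicate number left out, with and without the block. In oxLDL+LPS against oxLDL libraries, 4 to 8 ligands and 2990 to 3854 genes were called higher. Between oxLDL+LPS and LPS it was 0 to 2945 genes and 0 to 9 ligands, where the only gain without the block was without oxLDL+LPS replicate 2 (91 genes and 1 ligand, Cxcl9). The log2 difference there ran from −1.03 to 0.079 for Cxcl1, −0.13 to 0.74 for Cxcl3, −0.75 to 0.97 for Cxcl5 and −0.072 to 0.33 for Pf4, which changed sign, and from −1.22 to −0.24 for Cxcl2, −2.58 to −1.17 for Cxcl9, −1.42 to −0.66 for Cxcl10, −1.87 to −0.995 for Cxcl11 and −0.88 to −0.27 for Cxcl13. Between oxLDL and control it was 0 to 1285 genes and 0 to 1 ligand, with −0.018 to 1.29 for Cxcl5, −0.011 to 0.61 for Cxcl10 and −0.62 to 0.46 for Cxcl13. For the interaction it was 0 to 763 genes and 0 to 4 of all ligands tested. The values ran from −0.69 to 0.29 for Cxcl2 and −1.34 to 0.37 for Cxcl5. They ran from −1.09 to 0.020 for Cxcl13 and −0.25 to 0.15 for Pf4. For Cxcl3, for which no interaction is read, the value ran from −0.55 to 0.39. The cause of these changes was not tested.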
